A study of Mus musculus with 12 samples.

Results

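The genes described here encode the nuclear subunits of oxidative phosphorylation in mouse 2-cell embryos. They were chosen by symbol: Nduf genes for complex I, Sdh for complex II, Uqcr for complex III, Cox4 to Cox8 for complex IV and Atp5 for complex V, with 2 -ps pseudogenes left out. The table of the knockdown experiment listed 88 of them among 17866 genes (42, 4, 8, 17 and 17 for complexes I to V), and the table of the immunoprecipitation experiment listed 87 among 19390, without Cox7b2. Ndufa4 carries a complex I symbol, although its protein is now counted with complex IV. The symbol rule does not take in Cyc1, the complex III subunit cytochrome c1, and the tables as used here held no row for the subunits encoded in mitochondrial DNA.

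Two-cell embryos were compared in 2 experiments with 2 libraries per group, labelled replicates A and B. In the knockdown experiment, control embryos (Ctrl, genotype WT) and embryos with knockdown of Eif1ad3 (KD), a relative of the translation initiation factor gene Eif1a, were collected at the 2-cell stage. The submitters describe the reagent in 2 ways: as guide RNA with RfxCas13d mRNA given to 1-cell embryos of the CF1 stock, with RfxCas13d mRNA alone as the control, and as antisense morpholino oligos with Cas13d protein given to oocytes, with control oligos. In the immunoprecipitation experiment (RIP-seq, the sequencing of RNA recovered together with a protein), in vitro transcribed Eif1ad3-6xHis mRNA (200 ng/uL) was injected into zygotes. For each replicate, 200 cells were lysed and taken through beads with an anti-His antibody (His) or with negative-control IgG (IgG). Both bead groups carry the genotype label Eif1ad3_OE, so the His and IgG libraries share the injected mRNA. The labels do not say that replicates came from separate collections of embryos, so p-values measure only the spread between these libraries, which may be technical.

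Oxidative phosphorylation passes electrons from NADH through complex I, or from succinate through complex II, to ubiquinone, then through complex III and cytochrome c to complex IV, which reduces oxygen. Complexes I, III and IV pump protons across the inner mitochondrial membrane, and complex V, the ATP synthase, uses the gradient to make ATP. Early cleavage embryos rely on mitochondria inherited from the egg and take up pyruvate as a main fuel. Their subunit mRNAs are a mixture of RNA stored in the egg and RNA newly made once the embryonic genome is transcribed.

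Values are CPM, reads scaled to a common library total, and are not scaled to transcript length, so levels are compared between libraries for 1 gene and not between genes. The Ctrl and KD libraries held 18173916 to 27902514 reads, where 3 reads equal 0.108 to 0.165 CPM, and the His and IgG libraries 4678563 to 8364126 reads, where 3 reads equal 0.359 to 0.641 CPM. Eif1ad3 was at 839 and 663 CPM in Ctrl A and B and at 277 and 377 CPM in KD A and B, and at 80.3 and 83.6 CPM in His A and B against 1.35 and 30.8 CPM in IgG A and B. The IgG libraries stood apart from the others: 64.8% and 63.0% of listed genes had no read in IgG A and B, against 26.5% and 27.4% in His A and B, and the IgG replicates correlated at 0.47 across the 11232 genes tested, against 0.90 for His. Genes known from the 2-cell stage (8 of 9 on the list were in the tables) had summed levels of 3240 and 3147 CPM in Ctrl A and B, of 2363 and 2921 CPM in KD A and B, and of 134 and 141 CPM over the His libraries, across tables that were normalized separately. In the IgG libraries the same list summed to 4.39 and 35.9 CPM, with Zfp352, Obox3 and Usp17lc at 0 in IgG A and Usp17lc, Duxf3 and Zscan4f at 0 in IgG B.

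The promoters of these genes are known for sites of NRF1 and of ETS factors such as GABP, regulators of nuclear genes for mitochondrial proteins. RefSeq windows (build GRCm38.p6) were found for 69 of the 88 genes, and the 250 bases before the gene start were searched on both strands for NRF1 (GCGCA, any base, then GCGC), ETS (CCGGAAG) and YY1 (AAGATGGCG), each counted separately, so that overlapping matches of different motifs count under each. Counts are of genes; some genes have more than 1 window in the table and count once if any of them holds the motif. The NRF1 motif was found for 13 of the 69 genes (18.8%), against 4.23% of all 27025 genes in that table. The 27025 genes are more than the 20244 listed in either expression table, and no background of expressed genes was used. The ETS motif was found for 12 (17.4%, against 7.83%) and the YY1 motif for 1 (1.45%, against 0.710%). At least 1 of the 3 was found for 22 genes (31.9%, against 11.8%). A match describes the letters in this window and is not a shown binding site. The windows of 4 genes that recur below are printed 5′ to 3′ in the direction of transcription, all on the minus strand, with motif matches on either strand in capitals. Sdha holds 3 NRF1 matches. Cox6b1, the common isoform of a complex IV subunit, holds 1 ETS match, read here on the opposite strand, and its testis-type counterpart Cox6b2 holds no match of the 3 motifs. Cox8a, the complex IV gene with the highest CPM in control embryos, holds none either.
Sdha, chr13:74350241-74350490: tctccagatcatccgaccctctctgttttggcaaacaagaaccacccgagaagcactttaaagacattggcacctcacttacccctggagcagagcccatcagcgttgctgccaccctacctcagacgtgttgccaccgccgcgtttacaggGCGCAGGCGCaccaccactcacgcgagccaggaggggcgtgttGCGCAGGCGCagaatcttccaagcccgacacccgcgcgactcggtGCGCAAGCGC
Cox6b1, chr7:30626115-30626364: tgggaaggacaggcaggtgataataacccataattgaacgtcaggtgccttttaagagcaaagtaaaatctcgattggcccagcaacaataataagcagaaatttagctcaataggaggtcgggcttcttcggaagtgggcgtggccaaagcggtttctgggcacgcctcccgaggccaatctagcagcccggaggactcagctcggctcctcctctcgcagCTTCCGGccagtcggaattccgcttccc
Cox6b2, chr7:4753095-4753344: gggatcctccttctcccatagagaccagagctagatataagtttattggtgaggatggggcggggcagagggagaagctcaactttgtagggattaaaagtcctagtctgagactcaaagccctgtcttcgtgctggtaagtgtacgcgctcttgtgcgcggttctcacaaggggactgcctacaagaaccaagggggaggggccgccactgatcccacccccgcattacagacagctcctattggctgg
Cox8a, chr19:7217617-7217866: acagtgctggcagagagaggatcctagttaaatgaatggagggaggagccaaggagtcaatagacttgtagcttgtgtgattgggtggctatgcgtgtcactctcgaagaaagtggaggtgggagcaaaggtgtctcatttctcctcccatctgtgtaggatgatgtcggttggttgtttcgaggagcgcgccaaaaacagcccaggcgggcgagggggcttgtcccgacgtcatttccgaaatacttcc

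The first comparison asked whether subunit mRNAs differed between KD and Ctrl embryos. No subunit gene passed the test. The log2 fold change, KD over Ctrl, was above 0 for 65 of the 85 subunit genes tested, against 51.3% of all genes. They included 34 of 41 in complex I, 15 of 17 in complex V, and 22 of the 23 of low CPM (1 to 10 CPM on average). Of all genes of that level 55.4% were above 0. Both KD libraries were above both controls for 23 of the 85 (18.1% of all genes). Without KD A the median of complex V was below 0. Some genes of high CPM, such as Cox8a and Uqcrq, had lower values in both KD libraries than in both controls. Set against the control mean, the median subunit gene was higher in KD A than in KD B, though some genes and modules went the other way. The KD libraries differed from each other more than the controls did.

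With limma on log2(CPM + 1), 0 of the 85 subunit genes tested had an adjusted p under 0.05, and 0.0% of all 13332 genes did. Cox4i2, Cox8c and Ndufa4l2 did not reach 1 CPM in at least 2 libraries and were not tested. The smallest adjusted p of a subunit gene was 0.859. At an unadjusted p under 0.05, 3 genes were higher and 0 lower, where 2.95% of all genes were higher and 2.5% lower. The edgeR and DESeq2 count tests on the recovered reads also called 0 subunit genes. At an unadjusted p under 0.05 they had 4 and 7 of the 85, beside 758 and 1029 of all 13332 genes. Over all genes edgeR called 0.0% and DESeq2 0.105% higher and 0.0075% lower. Without KD A limma called 10 subunit genes (5 higher, with 15.1% of all genes called), and without KD B 3, all higher (3.23% of all genes); the lone KD library was then assumed to vary like the controls. The log2 fold change was above 0 for 65 of the 85 genes and below 0 for 20, against 51.3% above 0 among all genes. The median log2 fold change was 0.36, beside 0.02 for all genes. Both KD libraries were above both controls for 23 subunit genes (18.1% of all genes) and below both for 6 (18.4% of all genes). In bulk libraries such as these, fewer cells of a kind and less RNA per cell cannot be told apart, and CPM are shares of each library's RNA.

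**Figure D1:**
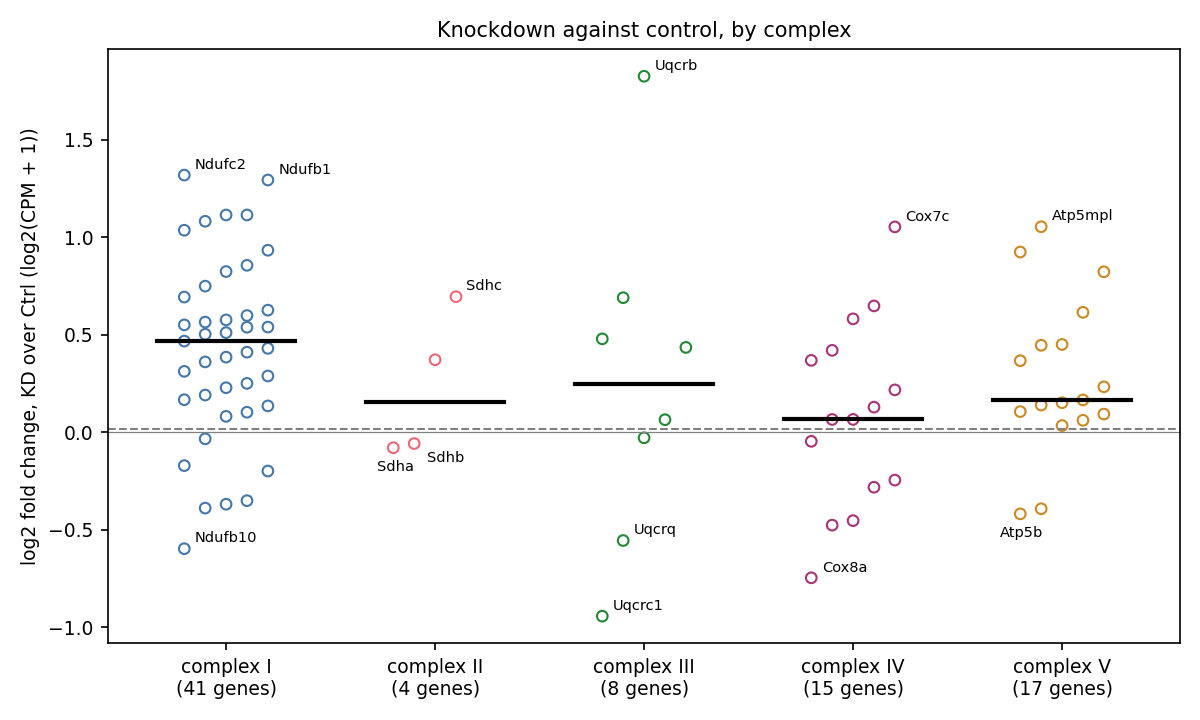
Log2 fold change of each tested subunit gene, KD over Ctrl, on the log2(CPM + 1) scale (y axis) by complex (x axis); open circles are genes, none of which passed the adjusted threshold, black bars are medians, and the dashed line is the median of all 13332 genes tested. The complex I genes lie mostly above 0 with a median of 0.47, and the median of complex IV, 0.07, lies near the dashed line.

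The KD libraries were not alike. KD A was above both controls for 59 of the 85 genes (69.4%, against 45.5% of all genes), whereas KD B was above both for 32 (37.6%, against 33.3% of all genes) and below both for 31 (36.5%, against 46.7% of all genes). For 20 genes KD A was above both controls while KD B was below both (23.5%, against 19.1% of all genes). The subunit genes summed to 4783 and 4718 CPM in Ctrl A and B, to 5584 CPM in KD A and to 4147 CPM in KD B. Set against the control mean, the median gene was 0.50 higher in KD A and 0.08 higher in KD B on the log2 scale, where the median of all genes was 0.14 and -0.17. The median SD between replicates was 0.25 in Ctrl and 0.51 in KD, close to the 0.24 and 0.49 of all genes. KD A also stood apart in oocyte genes: the 12 on the list, none of which is at 0 in it, summed to 14382 CPM in KD A and to 7104 to 7349 CPM in the other 3 libraries. The median of the 11 tested was 1.02 higher than the control mean in KD A on the log2 scale. In KD B it was -0.97 relative to that mean, so by this median KD B stood apart too, in the other direction. The genes of the list were not alike. In KD B Bmp15, Oosp1 and Oog1 were above both controls, and Btg4, Mos and Figla lay between them. In KD A Zp3 was below both controls, and Zp1 and Zp2 lay between them. The 2-cell genes had their lowest sum in KD A. Of the 7 tested, 6 had a log2 fold change below 0, beside 6489 of all 13332 genes. For 3 of the 7 both KD libraries were lower than both controls (18.4% of all genes). The part of these lists in the result was not tested. Markers of cumulus cells summed to 8.17 to 10.4 CPM and those of sperm to 1.65 to 3.83 CPM in all 4 libraries.

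Complex I, the NADH dehydrogenase, had a median of 0.47 (0.24 without KD A), with 34 of 41 genes above 0 (15 of the 15 genes at 1 to 10 CPM on average). Both KD libraries were above both controls for 13 genes (31.7%, against 18.1% of all genes) and below both for 4 (9.76%, against 18.4%). By module, the median was 0.41 for the 9 genes of the NADH-oxidising N module, 0.19 for the 7 of the ubiquinone-reducing Q module, 0.69 for the 9 of the membrane arm near the matrix arm and 0.55 for the 13 of its far end. Set against the control mean, these medians were 0.48, 0.83, 1.21 and 0.52 in KD A and 0.060, -0.084, -0.036 and 0.54 in KD B, so that the far end alone of the 4 had a median over 0.1 in both libraries. Ndufb1, an accessory subunit of the far end, was at 4.60 and 6.67 CPM in Ctrl A and B and at 14.6 and 15.6 CPM in KD A and B. Both KD values were above both controls; the log2 fold change was 1.29 (SE 0.51), with an adjusted p of 0.859 by limma. Ndufb3, another far-end subunit, chosen after its values were seen, was at 17.2 and 16.0 CPM in Ctrl and 30.7 and 31.1 CPM in KD, with replicates close together in both groups. Ndufc2, a subunit of the near part also chosen after its values were seen, had the largest fitted value of the complex, 1.32, at 2.12 and 0.482 CPM in Ctrl and 6.24 and 2.97 CPM in KD. Ndufb4 and Ndufb4c held identical reads in all 8 libraries, so their values (1.11 each) are 1 measurement and their reads cannot be told apart. Counted once, 64 of 84 subunit genes were above 0. Both are also among the 15 complex I genes at 1 to 10 CPM. Ndufb11b and Ndufs6b resemble Ndufb11 and Ndufs6 by name, and how the authors' counting divided reads among such relatives is not given in the sources used here.

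Some complex I genes had lower means in KD. Ndufa2, an N-module subunit with the highest CPM of the complex in Ctrl, was at 145 and 154 CPM in Ctrl and 113 and 121 CPM in KD. The groups did not overlap, and the log2 fold change was -0.35 (SE 0.33, adjusted p = 0.901 by limma). Ndufb10, a far-end subunit, was at 22.6 and 29.0 CPM in Ctrl and 13.9 and 19.7 CPM in KD, a log2 fold change of -0.60 (SE 0.46). The far end thus held both the largest and the smallest values among complex I genes at 10 CPM or more.

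Complex II, the succinate dehydrogenase that also serves the citric acid cycle, differed between the KD libraries in each of its 4 genes. Sdha, the flavoprotein that oxidises succinate, was at 28.1 and 37.2 CPM in Ctrl A and B, 60.8 CPM in KD A and 15.1 CPM in KD B. Sdhb, the iron-sulfur subunit, was at 14.7 and 14.9 CPM in Ctrl, 30.9 CPM in KD A and 6.22 CPM in KD B. In both genes KD A was above both controls and KD B below both. The membrane anchor Sdhc was at 17.0 and 11.6 CPM in Ctrl and at 37.7 and 14.4 CPM in KD, and the other anchor Sdhd at 8.60 and 11.3 CPM in Ctrl and at 16.7 and 10.1 CPM in KD. KD A exceeded both controls for all 4 genes and KD B for none. The median log2 fold change of complex II was 0.16, but 0.95 without KD B and -0.51 without KD A, and the adjusted p of the 4 genes lay between 0.893 and 0.998 (limma).

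In complex III, which passes electrons from ubiquinol to cytochrome c, 5 of 8 genes were above 0 and the median was 0.25, or 0.084 without KD A. Uqcrb, a subunit at the ubiquinone site, had the smallest p of all subunit genes; its mean was under 10 CPM over the 4 libraries, so it was chosen after its values were seen. Uqcrb was at 2.12 and 2.33 CPM in Ctrl A and B and at 10.7 and 10.1 CPM in KD A and B. The replicates lay close together and the groups far apart, with a log2 fold change of 1.82 (SE 0.53). The unadjusted p of 0.00901 gave an adjusted p of 0.859 with limma, and DESeq2 gave 0.198. Uqcrq, the complex III gene with the highest CPM in Ctrl, was at 287 and 312 CPM in Ctrl and 182 and 228 CPM in KD, a log2 fold change of -0.56 (SE 0.32, adjusted p = 0.859 by limma), with no overlap. The core subunits Uqcrc1 and Uqcrc2 spread widely between the KD libraries: Uqcrc1 was at 14.7 and 3.85 CPM in KD against 10.5 and 23.5 CPM in Ctrl, and Uqcrc2 at 75.9 and 28.8 CPM in KD against 27.8 and 29.6 CPM in Ctrl.

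**Figure D2:**
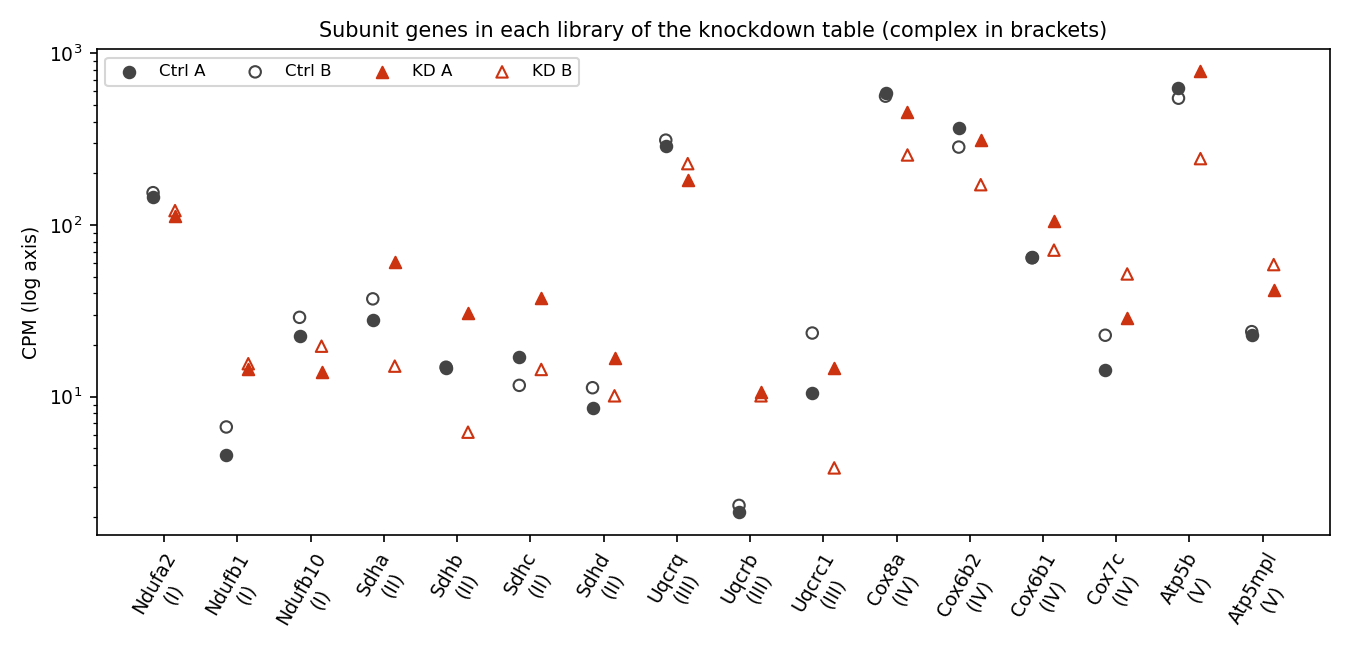
CPM of 16 subunit genes (log y axis) in each of the 4 libraries, Ctrl as circles and KD as triangles, replicate A filled and B open, with the complex in brackets under each gene. Uqcrb and Ndufb1 are higher in both KD libraries, Uqcrq and Cox8a lower in both, and for the complex II genes Sdha and Sdhb the KD libraries lie on either side of the controls.

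Complex IV, cytochrome c oxidase, had a median of 0.07, with 9 of 15 tested genes above 0; the median was 0.14 without KD A and 0.26 without KD B. Cox8a, a small membrane subunit, was at 586 and 563 CPM in Ctrl and at 457 and 256 CPM in KD. Both KD libraries were below both controls, the KD mean was 62.0% of the Ctrl mean, and the log2 fold change was -0.75 (SE 0.36, adjusted p = 0.859 by limma). Cox7c, another small subunit, was at 14.4 and 22.8 CPM in Ctrl and 28.7 and 51.9 CPM in KD, with no overlap and a log2 fold change of 1.05 (SE 0.49, adjusted p = 0.859 by limma). Over the 10 isoforms found in most tissues the median was 0.29, and over the 4 tested isoforms known from muscle or testis it was -0.09.

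The tissue isoforms of complex IV are given beside their common counterparts. Cox6b2, known from testis and sperm, was at 365 and 284 CPM in Ctrl and at 311 and 172 CPM in KD. Its common counterpart Cox6b1 was at 65.1 and 64.4 CPM in Ctrl and at 106 and 71.4 CPM in KD. The ratio of Cox6b2 to Cox6b1 was 5.60 and 4.42 in Ctrl A and B and 2.94 and 2.40 in KD A and B, so that both KD ratios were below both control ratios. Transcript length cancels when such a ratio is compared between libraries, but not within it. The exact permutation test (two-sided, n = 2 per group) gave p = 0.333, the smallest p this design allows. The sperm marker list, with 3 of its 7 genes in the table, summed to 3.83 CPM or less in each of these libraries. The muscle forms Cox6a2 (5.44 and 6.39 CPM in Ctrl) and Cox7a1 (2.08 and 5.46 CPM in Ctrl) were low beside Cox6a1 and Cox7a2 of the same library, at ratios of 0.0565 and 0.0659 for Cox6a2 and of 0.0121 and 0.0341 for Cox7a1, with no account of length. Cox4i2, known from lung, was at 0.520 and 0.402 CPM in Ctrl, and the testis forms Cox8c and Cox7b2 reached at most 0.788 and 1.76 CPM in any library of that table.

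**Figure D3:**
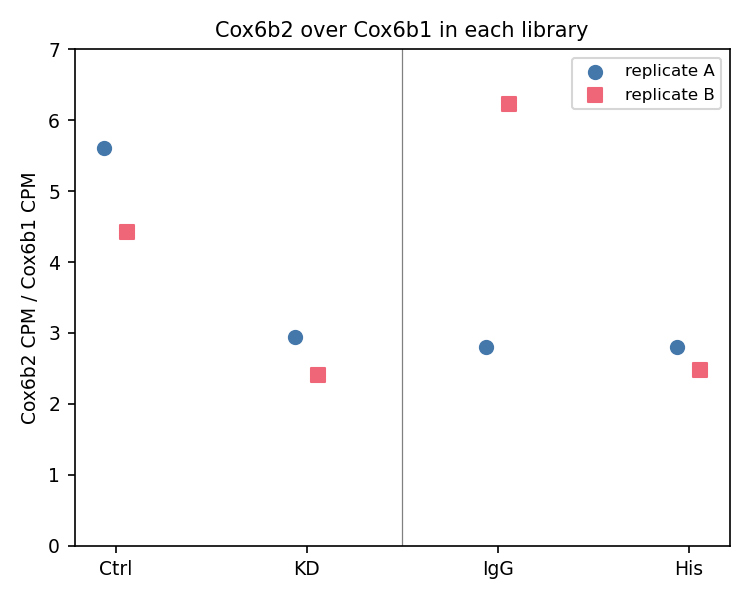
Ratio of Cox6b2 CPM to Cox6b1 CPM (y axis) in each library, replicate A as circles and B as squares; the vertical line separates the knockdown table from the immunoprecipitation table. The ratios are 5.60 and 4.42 in Ctrl and 2.94 and 2.40 in KD, 2.81 and 2.47 in His, and 2.81 and 6.22 in IgG.

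In complex V, 15 of 17 genes were above 0 with a median of 0.17, which was -0.037 without KD A and 0.35 without KD B. Both KD libraries were above both controls for 5 genes (29.4%, against 18.1% of all genes) and below both for 0 (18.4% of all genes). The 5 small membrane subunits (Atp5k, Atp5j2, Atp5l, Atp5mpl and Atp5md) all had a log2 fold change above 0, with a median of 0.45, beside 0.06 for the 5 genes of the catalytic head and central stalk and 0.26 for the 4 of the peripheral stalk. The order differed between the libraries: in KD A these medians were 0.49, 0.61 and 0.097, and in KD B 0.61, -0.54 and 0.42. Atp5mpl was at 22.9 and 23.9 CPM in Ctrl and 41.9 and 58.8 CPM in KD, with no overlap and a log2 fold change of 1.05 (SE 0.41, adjusted p = 0.859 by limma). The reads of Atp5md equal those of Gm35857 in all 8 libraries, so the gene that gave them cannot be told apart. Atp5b, the catalytic beta subunit, was at 626 and 548 CPM in Ctrl, 785 CPM in KD A and 244 CPM in KD B. Its log2 fold change of -0.42 came from KD B: it was 0.42 without that library. The 3 genes for the c-ring, which encode the same mature protein, differed in direction: Atp5g1 was at 258 and 198 CPM in Ctrl and 217 and 136 CPM in KD, Atp5g3 at 47.0 and 49.1 CPM in Ctrl and 49.7 and 87.5 CPM in KD, and Atp5g2 at 8.12 and 3.17 CPM in Ctrl and 15.4 and 2.201 CPM in KD. None of the 3 passed the test, and Atp5g1 and Atp5g2 overlapped between the groups.

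Direction varied with level. Of the 23 subunit genes with a mean of 1 to 10 CPM over the 4 libraries, 22 (95.7%) had a positive log2 fold change, against 55.4% of the 5513 genes of that level. Ndufb4 and Ndufb4c, which are 1 measurement, are both among the 22. The share was 81.8% of 22 genes at 10 to 30 CPM (all genes 52.2%), 69.2% of 26 genes at 30 to 100 CPM (all genes 48.7%) and 46.2% of 13 genes at 100 CPM or more (all genes 42.4%). The fall with level was thus present in all genes too, over a smaller range. Low genes carry fewer reads, and the log2(CPM + 1) scale makes their changes look smaller.

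**Figure D4:**
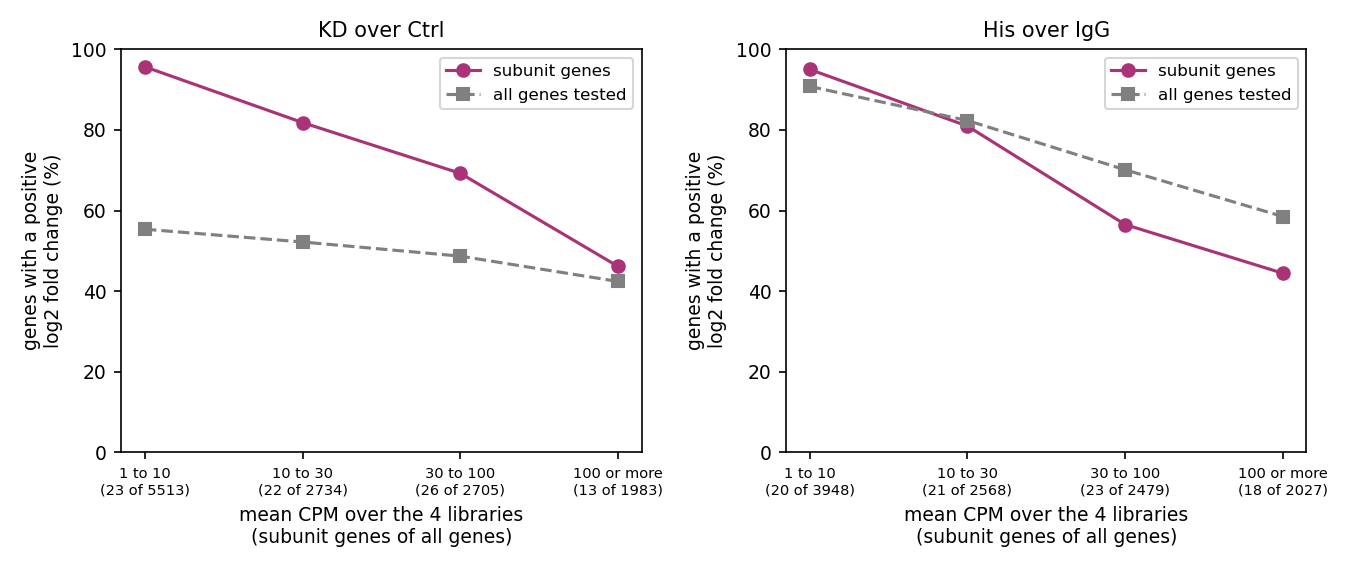
Percentage of genes with a positive log2 fold change (y axis) by mean CPM over the 4 libraries of a comparison (x axis), subunit genes as circles and all genes tested as squares, for KD over Ctrl (left) and His over IgG (right); brackets give the subunit genes and all genes per level. In the left panel subunit genes run from 95.7% to 46.2% and all genes from 55.4% to 42.4%; in the right panel the subunit genes at 30 CPM or more lie below all genes.

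Related lists gave other medians in the same fit. The counts above 0 are to be read beside the 51.3% of all genes above 0. Of 47 assembly factors of the complexes tested, 27 were above 0 and 20 below, with a median of 0.16. In limma 0 passed the adjusted threshold, and 6 higher and 1 lower had an unadjusted p under 0.05 (2.95% and 2.5% of all genes). Among these, named after their values were seen, the complex I assembly factor Ndufaf4 was at 97.1 and 111 CPM in Ctrl and 196 and 259 CPM in KD. The complex III assembly factor Uqcc3 was at 108 and 134 CPM in Ctrl and 54.5 and 46.9 CPM in KD. Neither overlapped between groups, and both had an adjusted p of 0.859 (limma). The median was -0.14 over 18 genes of the citric acid cycle and pyruvate dehydrogenase (8 above 0), -0.23 over 16 genes of glycolysis and glucose uptake (4 above 0), and 0.15 over 31 proteasome subunits (20 above 0), an unrelated housekeeping assembly. Of 13 regulators of mitochondrial genes tested, 7 were above 0. None of these lists held a gene past the adjusted threshold in limma. Their medians depended on the library: for assembly factors, the citric acid cycle, glycolysis and the proteasome they were 0.37, 0.31, 0.21 and 0.34 in KD A and -0.023, -0.43, -1.16 and -0.28 in KD B.

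The second comparison asked which subunit mRNAs were recovered with His-tagged Eif1ad3 more than with IgG. In limma, 30 of the 83 subunit genes tested were higher in His and 0 lower, or 36.1% against 35.7% of all 11232 genes higher and 0.917% lower, so the share called was near the background. With Ndufb4 and Ndufb4c, whose reads are identical, counted once, 29 of 82 were called (35.4%). By complex, limma called 17 of 40 genes of complex I, 2 of 4 of complex II, 5 of 8 of complex III, 2 of 14 of complex IV and 4 of 17 of complex V. Of the 10 common complex IV isoforms none was called higher in His by limma, and some, such as Cox5b and Cox4i1, had higher values in both IgG libraries. Cox4i2, Cox8c, Ndufa12 and Ndufs6b did not pass the filter on low values and were not tested.

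These calls rest on absence from IgG. The IgG libraries also differed from His in marker lists: oocyte genes summed to 3514 and 4726 CPM in IgG and 10421 and 10848 CPM in His, and blastocyst genes to 855 and 39.1 CPM in IgG A and B (with 10 and 7 of the 12 at 0) and 274 and 299.8 CPM in His. Of the 4 sperm genes in the table, Prm1, Odf1 and Akap4 were at 0 in all 4 libraries, and Prm2 was at 47.4 and 54.3 CPM in IgG and 1.08 and 7.20 CPM in His. Their part in the result was not tested. Of the 83 genes, 23 had no read in either IgG library (27.7%, against 28.2% of all genes). All 23 were called, as were 2693 of the 3162 such genes of the whole table. These genes passed the filter through the His libraries, so a log2 fold change above 0 was fixed in advance. With Ndufb4 and Ndufb4c counted once there were 22 such subunit genes. Of the 22 with no read in exactly 1 IgG library (30.8% of all genes were such), 6 were called, as were 949 of the 3464 such genes of the whole table. Of the 38 with reads in both IgG libraries 1 was called, Sdha, and the median log2 fold change of these 38 was -0.20 (15 above 0 and 23 below), where the 4606 genes of the table with reads in both had a median of 0.39, with 366 called higher and 103 lower. Over all subunit genes the median was 1.62 (1.46 with Ndufb4 and Ndufb4c counted once), beside 2.01 for all genes. Of the 83, 58 were above 0 (78.5% of all genes were). Both His libraries were above both IgG libraries for 39 genes (54.1% of all genes) and below both for 12 (9.06% of all genes). The count of calls depended on the method. In edgeR 0 of the 83 were called (0.0% of all genes), with a smallest adjusted p of 0.0547. At an unadjusted p under 0.05 edgeR had 30 of the 83, beside 4592 of all 11232 genes. DESeq2 called 32 higher and 10 lower (42.4% and 6.65% of all genes). Quantile normalization, which took the all-gene median from 2.01 to -0.081, called 0 subunit genes and 0 of all genes. At an unadjusted p under 0.05 in limma it had 20 subunit genes, beside 2339 of all 11232 genes. Without IgG A 63 were called (37 higher; 69.1% of all genes were called) and without IgG B 54 (44 higher; 70.0% of all genes). Without His A or His B 0 of the 53 subunit genes then tested were called (0.0889% and 0.0888% of all genes); the group left with 1 library was assumed to vary like the other.

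**Figure D5:**
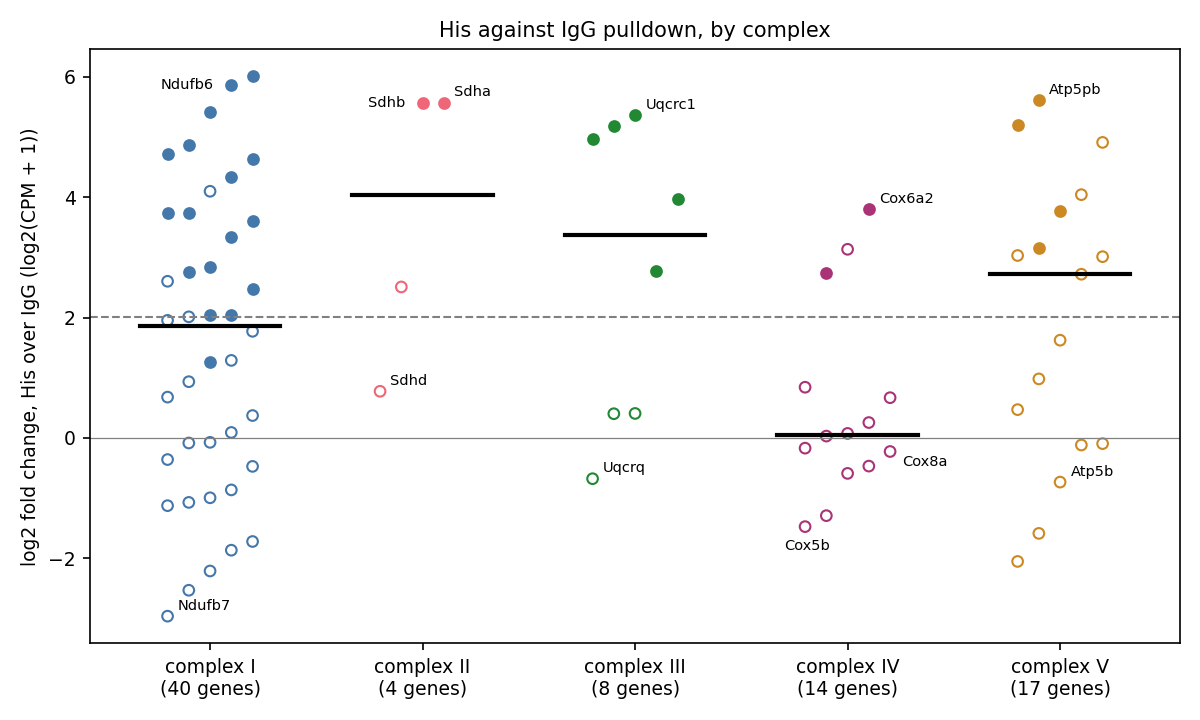
Log2 fold change of each tested subunit gene, His over IgG, on the log2(CPM + 1) scale (y axis) by complex (x axis); filled circles passed an adjusted p of 0.05 in limma, open circles did not, black bars are medians and the dashed line is the median of all 11232 genes, 2.01. Most complex IV genes lie near 0, and the 4 complex II genes lie above 0.

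In complex II, 2 of 4 genes were called (beside 35.7% of all genes) and the median was 4.04. Relative to the 2.01 of all genes it was 2.03, but 0.64 without IgG A and 2.76 without IgG B. Sdha was at 88.1 and 110 CPM in His A and B and at 1.35 and 0.855 CPM in IgG A and B. Both His values were far above both IgG values, and its log2 fold change of 5.57 (SE 0.71) had an adjusted p of 0.0132 in limma, 0.0547 in edgeR and 1.38e-09 in DESeq2. Sdhb was at 50.9 and 42.6 CPM in His and had no read in IgG, which makes it at least 81.5-fold higher against a floor of 3 reads per IgG library. The anchors Sdhc and Sdhd did not pass. Sdhc was at 44.2 and 37.6 CPM in His and at 0.338 and 39.3 CPM in IgG, and Sdhd at 12.4 and 41.9 CPM in His and at 0 and 196 CPM in IgG. For both anchors IgG A held 2 reads or fewer, and IgG B was within or above the His range.

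Complex III had 5 of 8 genes called (62.5%, beside 35.7% of all genes) and a median of 3.38, or 3.69 with its 3 genes absent from IgG set at their bounds. Relative to all genes the median was 1.37. It was -0.47 without His A and -0.42 without His B, but over fewer genes. None of the 5 called genes reached 1 CPM in IgG, so none then passed the filter. Uqcrc1 was at 42.3 and 38.5 CPM in His and had no read in IgG, at least 70.5-fold higher. Uqcrc2, Uqcr10, Uqcrb and Uqcrfs1 were the others called; in IgG each was at 0.855 CPM or less. Uqcrq went the other way, at 71.1 and 73.5 CPM in His and 97.0 and 139 CPM in IgG, without passing (log2 fold change -0.68, SE 0.70). Uqcr11 was at 19.1 and 17.7 CPM in His and at 1.01 and 105 CPM in IgG, so its IgG replicates spanned the His values.

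In complex I, 17 of 40 genes were called (42.5%, beside 35.7% of all genes), and 14 of the 17 had no read in IgG. The median was 1.86, or -0.14 relative to all genes. On that relative scale it was -1.15 without His A and -0.92 without His B. Those values are over fewer genes, since none of the 17 called genes then passed the filter. Ndufb6, of the far end of the membrane arm, was at 63.8 and 52.0 CPM in His and had no read in IgG, at least 101-fold higher. The largest negative value was that of another far-end subunit, Ndufb7, at 5.62 and 4.93 CPM in His and 32.2 and 70.7 CPM in IgG. Both IgG values were above both His values, with a log2 fold change of -2.96 (SE 0.86, adjusted p = 0.0821 by limma). Calls were in all modules, to be read against the same 35.7%: 2 of 8 tested genes of the N module, 3 of 7 of the Q module, 3 of 9 of the near and 7 of 13 of the far membrane arm. Ndufb4 and Ndufb4c, of the far arm, are 1 measurement but count as 2 here, among the 17 and among the 14. Ndufa2 was at 73.1 and 82.1 CPM in His and at 193 and 60.3 CPM in IgG, which overlap.

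Complex IV had a median of 0.05 (-1.95 relative to all genes, and -0.87 without His A and -0.91 without His B). Limma called 2 of its 14 genes (14.3%, beside 35.7% of all genes). The 2 called genes did not pass the filter without a His library. The set of all genes tested then shrank too, to 6750 without His A and 6754 without His B. Of the 10 common isoforms limma called 0, and DESeq2 called Cox4i1 (log2 fold change -1.73, adjusted p = 0.0232) and Cox5b (-1.80, adjusted p = 4.53e-06) lower in His; in limma 5 were above 0 and 5 below, with a median of -0.07. In 10 of the 14 genes both IgG libraries held reads (71.4%, against 41.0% of all genes and 32.5% of complex I genes). Cox8a was at 1073 and 989 CPM in His and at 1252 and 1158 CPM in IgG, with little spread in either group and a log2 fold change of -0.23 (SE 0.11, adjusted p = 0.224 by limma), which median rescaling moved to 0.12. Cox5b, a matrix-side subunit, was at 117 and 112 CPM in His and 278 and 367 CPM in IgG, a log2 fold change of -1.47 (SE 0.48, adjusted p = 0.103 by limma), and Cox4i1 at 106 and 95.6 CPM in His and 314 and 196 CPM in IgG. For both, each IgG value exceeded each His value. The 2 called genes were the muscle forms Cox6a2, at 21.0 and 7.83 CPM in His, and Cox7a1, at 2.99 and 10.1 CPM in His, neither with a read in IgG. Their common counterparts were abundant in both groups: Cox6a1 was at 157 and 119 CPM in His and 124 and 290 CPM in IgG, and Cox7a2 at 154 and 155 CPM in His and 229 and 72.9 CPM in IgG. The ratio of Cox6b2 to Cox6b1 was 2.81 and 2.47 in His and 2.81 and 6.22 in IgG. Cox7a2l, a factor of respiratory supercomplexes, was at 137 and 140 CPM in His and at 0 and 251 CPM in IgG, so its IgG replicates lay on either side of the His values. Its log2 fold change of 3.13 was -0.85 without IgG A (adjusted p = 0.0194 by limma) and 7.12 without IgG B (adjusted p = 6.11e-05 by limma).

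Complex V had 4 of 17 genes called (23.5%, beside 35.7% of all genes) and a median of 2.72. Relative to all genes the median was 0.71, but -0.37 without His A, -0.75 without IgG A and -0.54 without IgG B. Without His A none of the 4 called genes passed the filter, so that value is over fewer genes. Atp5pb, of the peripheral stalk, was at 57.3 and 53.9 CPM in His and at 0.338 and 0 CPM in IgG (2 reads), a ratio of 295 over the pooled reads with a 95% counting interval of 81.4 to 2440, which does not cover the spread between libraries. Atp5d, Atp5k and Atp5o, of the central stalk, the membrane part and the peripheral stalk, were the others called and had no read in IgG. Atp5b was at 1155 and 1354 CPM in His and at 2802 and 1546 CPM in IgG, and Atp5j2, a small membrane subunit, at 53.9 and 56.1 CPM in His and 333 and 161 CPM in IgG. Both were below IgG in both His libraries without passing (log2 fold changes -0.73 and -2.05, adjusted p = 0.220 and 0.127 by limma). In the c-ring, Atp5g1 was at 189 and 207 CPM in His and 150 and 309 CPM in IgG, Atp5g2 at 46.4 and 48.4 CPM in His and 34.9 and 0 CPM in IgG, and Atp5g3 at 88.0 and 74.3 CPM in His and 0 and 99.2 CPM in IgG. None of the 3 was called, and for Atp5g2 and Atp5g3 a single IgG library held all of the IgG reads.

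The log2 fold changes were also read by level. Among genes with a mean of 100 CPM or more over the 4 libraries, the median was -0.14 for 18 subunit genes and 0.31 for all 2027 genes, and at 30 to 100 CPM it was 0.47 for 23 subunit genes and 1.30 for all genes. At 10 to 30 CPM it was 4.64 for 21 subunit genes and 3.06 for all genes, and at 1 to 10 CPM 2.77 for 20 subunit genes and 2.51 for all genes. Complex IV supplied 10 of the 18 subunit genes at 100 CPM or more, with a median of -0.20, and complex II none. The medians of the complexes were described without a test of one complex against another. In the same fit, 22 of 37 assembly factors, 9 of 16 genes of the citric acid cycle and pyruvate dehydrogenase, 2 of 16 of glycolysis and glucose uptake and 5 of 30 proteasome subunits were called higher by limma, or 59.5%, 56.2%, 12.5% and 16.7%, beside 35.7% of all genes. Of the genes tested in these lists, 18, 3, 2 and 3 had no read in either IgG library. Cycs, the cytochrome c that links complexes III and IV, was at 61.6 and 53.8 CPM in His and had no read in IgG, and Cyc1 was at 42.0 and 20.6 CPM in His and 54.5 and 101 CPM in IgG.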

How the data were processed

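The deposited values are CPM made by the authors, 1 column per library. Per the submitters' processing notes, Trim Galore 0.6.7, FastQC, HISAT2 2.2.1, featureCounts 2.0.1, edgeR and GRCm39 were used; annotation, gene filter and strand setting are not given in the sources used here. Per the labels' protocols, cDNA was amplified with a Smart-seq2 kit, by PCR without molecular identifiers, so floors and counting intervals cover counting error only. All values (100%) were whole reads within 0.02, so reads and totals were recovered.

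Of 12 labelled samples, 8 were used. The names of 4 further value columns do not decide between the input and total RNA samples, so these columns were not used and comparisons with input or total RNA were not run.

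Genes at 1 CPM or more in at least 2 of the 4 libraries of a comparison were tested with limma 3.58.1 in R 4.3.3 on log2(CPM + 1) (lmFit, eBayes with trend, two-sided), with Benjamini-Hochberg adjustment over all genes tested and a threshold of 0.05; members were read from that fit. Fold changes are on this scale, on which low genes appear to change less than they do; SE are moderated. The tables were normalized separately and tested separately. Alternatives were edgeR 4.0.16 (quasi-likelihood, TMM) and DESeq2 1.42.0 on the recovered reads, pseudocounts of 0.1 and 5, other filters, median rescaling, quantile normalization, the replicate letter as a block, leaving out each library, and the enzyme subunits without tissue isoforms and other genes that share the symbols.

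The genes and all lists were chosen with earlier results of these data known. Named genes are all Sdh and c-ring genes; in each complex the gene with the highest CPM in Ctrl and those with the largest positive and negative log2 fold change at a mean of 10 CPM or more; at most the 5 largest called in each direction; and the tissue isoforms of complex IV with their counterparts. A gene that meets this rule is not reported here. Genes given beside these, in groups or singly, were chosen after their values were seen.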

Additional observations from a re-analysis of the deposited data

How the results depend on the processing

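With 2 libraries per group, replication limits the precision of every value, and in the immunoprecipitation so do the shallow and sparse IgG libraries. For KD against Ctrl, the number of subunit genes called (0) was 0 under every alternative except leaving out KD A (10, of which 5 higher) or KD B (3, all higher); over the alternatives without 1 library it ran from 0 to 10. Without 1 library in turn, the median log2 fold change ran from 0.24 to 0.56 for complex I, from -0.51 to 0.95 for II, from 0.084 to 0.35 for III, from -0.037 to 0.35 for V and from 0.089 to 0.26 for complex IV, which was 0.13 with median rescaling and 0.29 with the enzyme subunits alone. Values of single genes changed sign when 1 library was left out, with ranges of -1.26 to 0.42 for Atp5b, -0.95 to 1.41 for Atp5g2, -0.70 to 0.14 for Cox4i1, -1.35 to 0.86 for Cox6a2, -0.47 to 0.60 for Cox7a1, -0.46 to 0.76 for Cox7b2, -1.05 to 0.89 for Sdha and -1.13 to 1.01 for Sdhb. Sign changes under other settings were Cox6a2 (0.093 in edgeR, 0.077 in DESeq2), Cox7a1 (-0.0087 with quantile normalization), Sdha (0.17 in edgeR, 0.16 in DESeq2) and Sdhb (0.019 with a pseudocount of 5, 0.0020 with median rescaling, 0.26 in edgeR, 0.25 in DESeq2).

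For His against IgG, the number called (30) was 0 with quantile normalization and in edgeR, and ran from 0 to 63 without 1 library; without a His library fewer genes could pass the filter. The medians of the complexes relative to all genes depended on how genes absent from IgG are scaled. With a pseudocount of 0.1 they were 0.044 for complex I, 2.31 for III, -3.61 for IV and -0.58 for V, and with a pseudocount of 5 they were 0.76 for III, -0.95 for IV and 0.45 for V. With no filter they were 0.29 for I, 2.13 for III, -1.08 for IV and 1.48 for V, and with a mean of at least 5 CPM they were -0.83 for I, 2.22 for III and 0.96 for V. Quantile normalization gave 0.0098 for IV and 0.31 for V, and put the median of all genes at -0.081. The medians were -0.49 for I, 5.502 for III and -0.37 for V in edgeR, and -0.49 for I, 5.08 for III and -0.41 for V in DESeq2. Without 1 library they ran from -1.15 to -0.37 for I, -0.47 to 1.43 for III, -2.78 to -0.87 for IV and -0.75 to 0.69 for V. The filter was applied again each time, so the medians without a His library are over fewer genes. Complex II kept a positive value under every alternative tried.

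Single genes that changed sign in His against IgG without 1 library were Atp5g1 (-0.64 to 0.40), Atp5g3 (-0.29 to 6.35), Cox6a1 (-1.08 to 0.14), Cox6b1 (-0.11 to 0.26), Cox6b2 (-1.35 to 0.17), Cox7a2 (-0.56 to 1.07), Cox7a2l (-0.85 to 7.12), Ndufa2 (-1.30 to 0.36) and Sdhd (-3.04 to 4.59). Under other settings these were Atp5g1 (0.23 with median rescaling, 0.28 with quantile normalization), Cox6b1 (-0.25 in DESeq2), Cox7a2 (-0.13 in edgeR, -0.41 in DESeq2), Cox8a (0.12 with median rescaling) and Sdhd (-0.15 with a pseudocount of 5, -1.09 with quantile normalization, -1.75 in edgeR, -1.96 in DESeq2). Except where stated, the cause was not tested.

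With the replicate block the count of subunit genes called was 0 for KD against Ctrl and 27 for His against IgG (34.7% of all genes were called). For KD against Ctrl, 4 subunit genes had an unadjusted p under 0.05 in limma, beside 926 of all 13332 genes. The smallest adjusted p of a subunit gene was 0.519 in that fit, for Uqcrb. Deviations from the group means correlated between libraries of the same letter at 0.15 and -0.01, over 2 pairs each, and the labels do not say what a letter stands for, so the samples share a letter only. The planned fit over all immunoprecipitation libraries that can be mapped equals the fit over the 4 His and IgG libraries.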
